A study of Chlamydomonas reinhardtii with 8 samples.

Results

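The 7 genes described here serve copper nutrition in the single-celled green alga Chlamydomonas reinhardtii. They were chosen by name from the 17693 genes of the count table, and all 7 were present and had enough counts to be tested. CTR1 (Cre13.g570600_4532.v6.1) and CTR2 (Cre10.g434350_4532.v6.1) encode copper transporters of the cell surface. CYC6 (Cre16.g651050_4532.v6.1), CPX1 (Cre02.g085450_4532.v6.1) and CRD1 (Cre07.g346050_4532.v6.1) are classic copper-deficiency genes, PCY1 (Cre03.g182551_4532.v6.1) encodes plastocyanin, and CRR1 (Cre09.g390023_4532.v6.1) encodes the copper response regulator. The tables used here do not pair these identifiers with symbols, so the symbols are those of the standard nomenclature. Other genes are given without the version suffix.

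Copper-replete cells of this alga carry electrons from the cytochrome b6f complex to photosystem I with plastocyanin, a copper protein. When copper runs short, the transcription factor CRR1 switches on a set of target genes. Cytochrome c6, an iron protein encoded by CYC6, then takes the place of plastocyanin, copper transporters are made, and CPX1 and CRD1, enzymes of tetrapyrrole and chlorophyll synthesis, are raised. Several of these targets also respond to low oxygen through CRR1, and the transcript of plastocyanin itself is known to change little with copper, since control acts on the protein.

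Vegetative cells were grown in acetate medium under continuous light, and RNA-seq gave 8 libraries in 4 groups of 2 biological replicates. The groups were DNMT1 knockout (dnmt1) and wild type (WT) in mating type plus (mt+), of CC-5155 strains by title, and dnmt1 and WT in mating type minus (mt-), of CC-5325 strains. Mating type and strain background were therefore one contrast, and the labels state neither the lesion in DNMT1, a DNA cytosine methyltransferase, nor how many independent mutant clones were used. No label describes a copper treatment, so all 4 groups shared the same stated growth conditions.

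Library totals ran from 12204374 to 21115955 counts, and 15263 genes were tested. The replicates of WT mt+ differed most: the log2 difference between them had an SD over genes of 0.47, and that between replicates was 0.32, 0.34 and 0.32 in dnmt1 mt+, dnmt1 mt- and WT mt-. Levels are given in CPM, counts scaled to library size with TMM factors, per 1e+06. The gene taken as the knockout target, DMT1 (Cre10.g461750), had 268 and 197 counts in dnmt1 mt+ against 332 and 480 in WT mt+, and 1321 and 1337 counts in dnmt1 mt- against 648 and 363 in WT mt-. Its transcript was thus lower in the dnmt1 libraries of one mating type and higher in those of the other. The label alone does not explain the rise. Since the lesion is not stated, read counts cannot show whether function was lost. Below, dnmt1 in a group's name stands for the library labelled so, and every direction rests on these labels. The gamete gene FUS1 (Cre06.g252750), specific to mt+, had 8 to 28 counts in the 4 mt+ libraries and 0 counts in the 4 mt- libraries, which allows up to 0.204 CPM in any one of them (3 counts per library, counting error only). Odd numbers made up only 25.5% to 30.8% of the counts from 2 to 19 in a library. Single counts may therefore not be independent, which would make this bound too low. The reason was not tested. Differences are given as log2 fold changes ± a standard error derived from edgeR's quasi-likelihood test. A gene was called at an adjusted p under 0.05 (edgeR quasi-likelihood, Benjamini-Hochberg over all tested genes). With 2 libraries a group, many listed genes that were not called also showed no overlap between groups. Lack of overlap is therefore description only, and its share over all tested genes was not counted.

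Both transporter genes exceeded WT in the libraries labelled dnmt1, in each mating type. In bulk RNA, more expressing cells and more RNA per cell cannot be told apart. CTR2 had 52.4 and 47.3 CPM in dnmt1 mt+ against 23.9 and 14.8 CPM in WT mt+, and 57.9 and 53.7 CPM in dnmt1 mt- against 23.7 and 20.1 CPM in WT mt-. Every dnmt1 library was thus above every WT library of either mating type. The log2 fold change of CTR2 was 1.39 ± 0.16 in mt+ (2.62-fold, edgeR adjusted p = 2.82e-05) and 1.34 ± 0.16 in mt- (2.53-fold, edgeR adjusted p = 3.05e-05). Among all 15263 tested genes, 2.28% changed by a larger factor in mt+ and 2.65% in mt-.

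CTR1 had 99.0 and 94.0 CPM in dnmt1 mt+ against 59.0 and 47.7 CPM in WT mt+. In dnmt1 mt- it had 117 and 114 CPM, against 64.9 and 72.5 CPM in WT mt-. The groups again did not overlap, and the lowest dnmt1 library stood above the highest WT library. The log2 fold changes were 0.86 ± 0.10 in mt+ (1.82-fold, edgeR adjusted p = 3.07e-05) and 0.75 ± 0.10 in mt- (1.68-fold, edgeR adjusted p = 8.87e-05).

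The dnmt1 effect on the transporters was not called different between the mating types. The difference of the log2 fold changes (mt+ minus mt-) was 0.11 for CTR1, with a 95% interval of -0.19 to 0.41, and 0.05 for CTR2, with an interval of -0.43 to 0.53. These intervals still allow the effect in one mating type to exceed the other. CTR2 was called for this difference in 1 alternative fit, the one without WT mt+ replicate 1, where it was 0.43 (edgeR adjusted p = 0.0411). Without WT mt+ replicate 2 it was -0.27 (edgeR adjusted p = 0.191), so the sign followed which of the 2 WT mt+ libraries remained.

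CTR2 also took a larger share relative to CTR1 in dnmt1. The ratio of CTR2 to CTR1 counts within a library, which no scaling between libraries can move, was 0.529 and 0.503 in dnmt1 mt+ against 0.405 and 0.309 in WT mt+. It was 0.496 and 0.470 in dnmt1 mt- against 0.366 and 0.277 in WT mt-. All 4 dnmt1 libraries lay above all 4 WT libraries. The ratio is given as a description and was not tested.

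**Figure D1:**
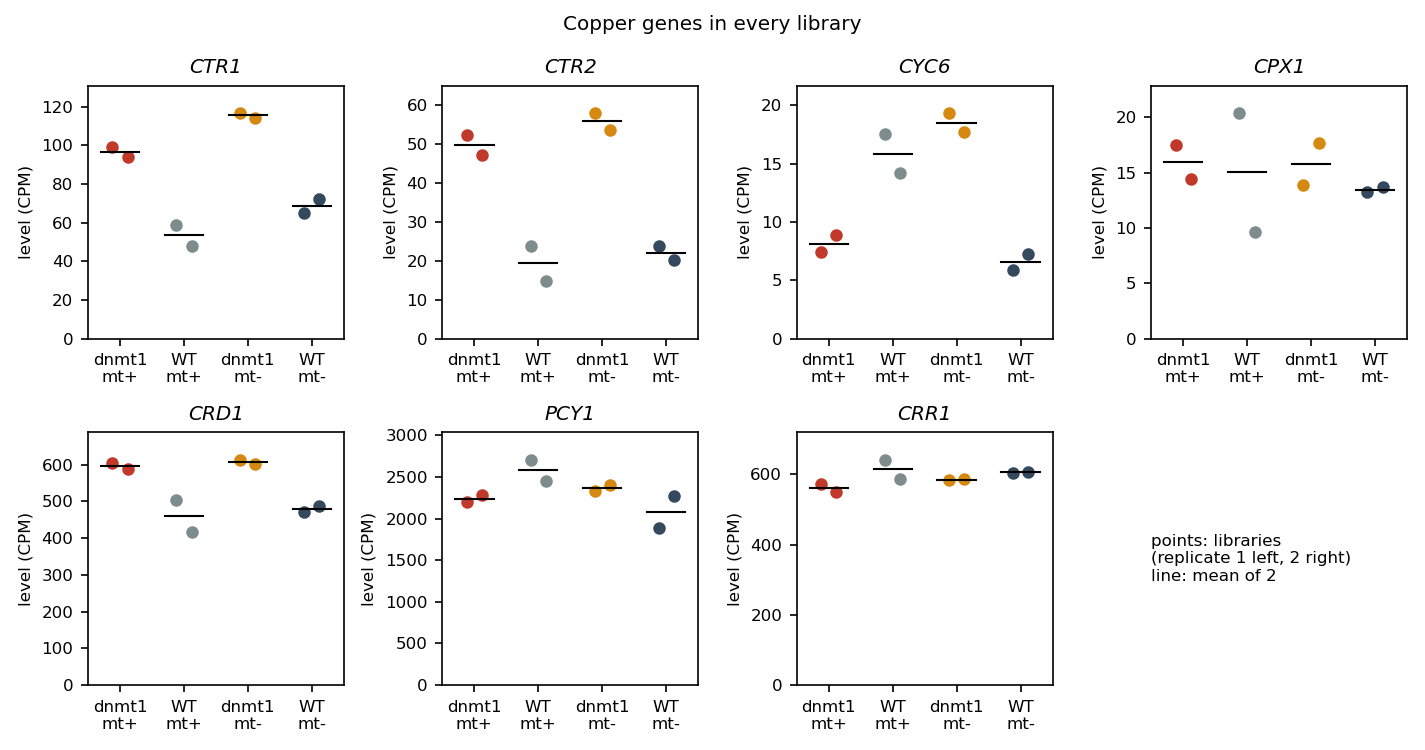
Levels in CPM of the 7 copper genes in every library (points, replicate 1 left and replicate 2 right) with the mean of each group (line), each panel starting at 0. CTR1, CTR2 and CRD1 are higher in both dnmt1 groups, CYC6 and, by a smaller factor, PCY1 are lower than WT in dnmt1 mt+ and higher in dnmt1 mt-, CRR1 is slightly lower in all dnmt1 libraries, and CPX1 overlaps between groups in mt+.

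CYC6, for the copper-deficiency cytochrome c6, differed from WT in opposite directions in the dnmt1-labelled libraries of the 2 mating types. DMT1, the gene taken as the knockout target, did so too, with log2 fold changes of -0.95 ± 0.13 in mt+ and 1.71 ± 0.11 in mt-. Its part in the result was not tested. CYC6 had 7.41 and 8.86 CPM in dnmt1 mt+ against 17.5 and 14.2 CPM in WT mt+, and 19.3 and 17.7 CPM in dnmt1 mt- against 5.85 and 7.28 CPM in WT mt-. Neither pair of groups overlapped. CYC6 therefore fell in dnmt1 mt+ (log2 fold change -0.95 ± 0.18, edgeR adjusted p = 0.00128) and rose in dnmt1 mt- (1.51 ± 0.17, 2.85-fold, edgeR adjusted p = 2.60e-05). The raw counts behind these levels ran from 108 to 304 per library.

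The opposite signs were tested directly. The log2 fold change of CYC6 in mt+ minus that in mt- was -2.46 ± 0.25, with a 95% interval of -2.99 to -1.94 (edgeR adjusted p = 8.31e-06), and 0.957% of all tested genes had a larger difference in size. The call held in all 14 alternative fits, with differences from -2.62 to -2.29. Of the 7 genes, CYC6 alone was called for this difference, where the background of calls was 13.8% (6.81% higher and 7% lower in mt+). A count of 1 of 7 is near that background. With library size alone as the scaling, the calls over all genes split into 1250 higher and 690 lower, against 1040 and 1069 with TMM.

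Seen across mating types, the same libraries gave CYC6 a reversed order. In dnmt1, the level was 8.14 ± 1.03 CPM in mt+ and 18.5 ± 1.15 CPM in mt- (SD, n = 2 each), a log2 fold change of -1.19 ± 0.17 (mt+ over mt-, edgeR adjusted p = 0.000178). In WT, it was 15.8 ± 2.36 CPM in mt+ and 6.57 ± 1.01 CPM in mt- (SD, n = 2 each), a log2 fold change of 1.27 ± 0.18 (edgeR adjusted p = 0.000173). From low to high the groups ran WT mt-, dnmt1 mt+, WT mt+ and dnmt1 mt-, and no neighbours in this order overlapped, though WT mt- (up to 7.28 CPM) and dnmt1 mt+ (from 7.41 CPM) nearly met. These comparisons use the same 8 libraries as the ones between dnmt1 and WT.

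The transporter genes and CYC6, all known targets of CRR1, thus moved together in mt- and apart in mt+. Counts of CYC6 per count of CTR1 in a library were 0.0749 and 0.0943 in dnmt1 mt+ against 0.297 and 0.297 in WT mt+, and 0.166 and 0.155 in dnmt1 mt- against 0.0902 and 0.100 in WT mt-. The WT mt+ libraries, which differed most from each other over all genes, agreed closely in this ratio.

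**Figure D2:**
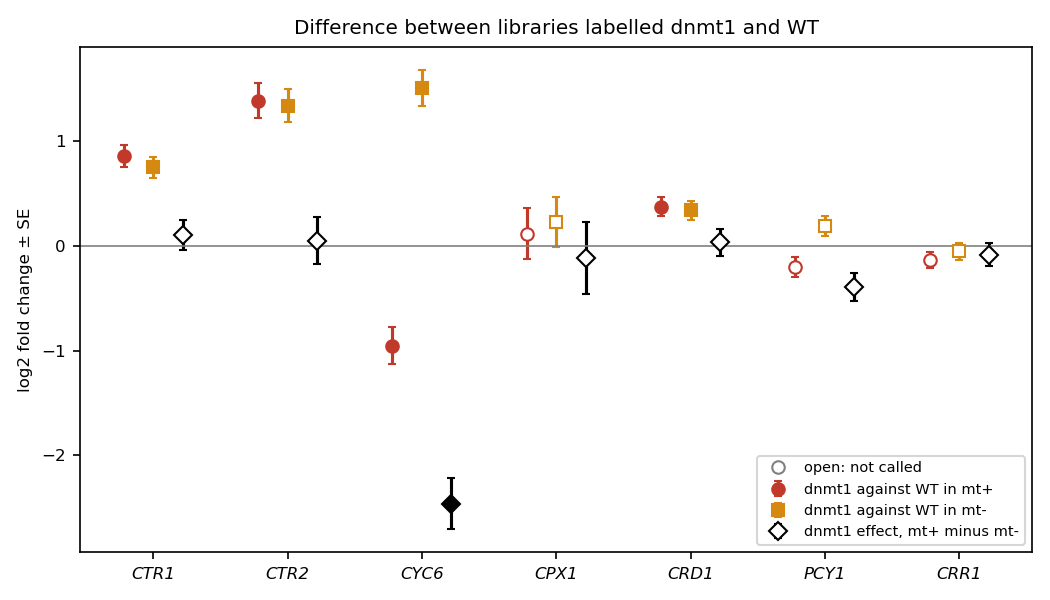
Log2 fold change ± SE of each copper gene between dnmt1 and WT in mt+ (circles) and mt- (squares) and the difference of the 2 effects (diamonds), with filled symbols for called genes. The CYC6 symbols lie at -0.95 and 1.51 on opposite sides of 0, while those of CTR1, CTR2 and CRD1 lie above 0 in both mating types.

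CRD1 encodes a subunit of the aerobic cyclase that closes the isocyclic ring of chlorophyll. It had 604 and 589 CPM in dnmt1 mt+ against 503 and 417 CPM in WT mt+, and 614 and 602 CPM in dnmt1 mt- against 472 and 487 CPM in WT mt-. No WT library reached a dnmt1 library. The rises were small, with log2 fold changes of 0.38 ± 0.09 in mt+ (1.30-fold, edgeR adjusted p = 0.00819) and 0.34 ± 0.09 in mt- (1.27-fold, edgeR adjusted p = 0.0119). Among all tested genes, 32.2% and 40.4% changed by a larger factor. Its call in mt+ was lost without dnmt1 mt+ replicate 1 (edgeR adjusted p = 0.0625) and in a fit to these 2 groups alone (0.0525). In mt- it was lost without any 1 of the 4 mt- libraries, at adjusted p from 0.0549 to 0.107.

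CTH1 (Cre12.g510050) is the near-relative of CRD1 whose product is known to accumulate in copper-replete cells, so that CRD1 and CTH1 stand in for each other. Counts of CRD1 per count of CTH1 were 6.94 and 6.91 in dnmt1 mt+ against 5.71 and 6.89 in WT mt+, and 7.62 and 8.59 in dnmt1 mt- against 8.67 and 8.64 in WT mt-. In each mating type the groups nearly met, at 6.91 in dnmt1 against 6.89 in WT for mt+ and at 8.59 in dnmt1 against 8.64 in WT for mt-. CTH1 itself had a log2 fold change of 0.22 ± 0.13 in mt+ (edgeR adjusted p = 0.278) and 0.44 ± 0.13 in mt- (edgeR adjusted p = 0.0238), a call in mt- that was lost without 3 of the 4 mt- libraries. Since the genes are alike, reads may have been split between them.

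CPX1, for coproporphyrinogen oxidase, was not called. It had 17.5 and 14.4 CPM in dnmt1 mt+ against 20.4 and 9.68 CPM in WT mt+, and 13.9 and 17.6 CPM in dnmt1 mt- against 13.2 and 13.7 CPM in WT mt-. The WT mt+ libraries alone spanned the values of all others, while in mt- the groups did not overlap. The log2 fold changes were 0.12 in mt+ (95% interval -0.40 to 0.64) and 0.23 in mt- (-0.28 to 0.74), so changes of the size seen for CRD1 were not detectable at this spread. Without WT mt+ replicate 1 the value in mt+ was 0.73 (edgeR adjusted p = 0.00142) and without replicate 2 it was -0.35 (0.112).

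PCY1 differed little between dnmt1 and WT. It had 2193 and 2281 CPM in dnmt1 mt+ against 2709 and 2446 CPM in WT mt+, and 2332 and 2402 CPM in dnmt1 mt- against 1891 and 2266 CPM in WT mt-. The dnmt1 libraries were the lower ones in mt+ and the higher ones in mt-, without overlap, which by itself says little with 2 libraries a group. The log2 fold changes were -0.20 ± 0.10 in mt+ (edgeR adjusted p = 0.158) and 0.19 ± 0.10 in mt- (edgeR adjusted p = 0.169), neither called. Their difference was -0.39 ± 0.13, of the same sign as that of CYC6, and was not called (edgeR adjusted p = 0.0668). It was called in 7 of 14 alternative fits, among them DESeq2 (adjusted p = 0.0443) and the fits without WT mt+ replicate 1 (0.0334), without WT mt+ replicate 2 (3.2e-04) and without WT mt- replicate 2 (0.0160). In WT, PCY1 was higher in mt+ than in mt- (log2 fold change 0.31 ± 0.10, edgeR adjusted p = 0.0297), a call lost in 6 of 15 alternative fits, with adjusted p up to 0.248 without WT mt- replicate 1.

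Because cytochrome c6 and plastocyanin do the same job, their transcripts were also set against each other within each library. CYC6 counts per 1000 PCY1 counts were 3.38 and 3.89 in dnmt1 mt+ against 6.46 and 5.79 in WT mt+. They were 8.29 and 7.37 in dnmt1 mt- against 3.10 and 3.21 in WT mt-. The ratio fell below WT in one mating type and rose above it in the other, without overlap, and it is free of scaling between libraries. In every library PCY1 counts far exceeded CYC6 counts, with at most 8.29 CYC6 counts per 1000 PCY1 counts. The change of CYC6 was thus one within a low range, in all 4 groups. The counts are not corrected for transcript length, so the exact size of the ratio cannot be read.

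**Figure D3:**
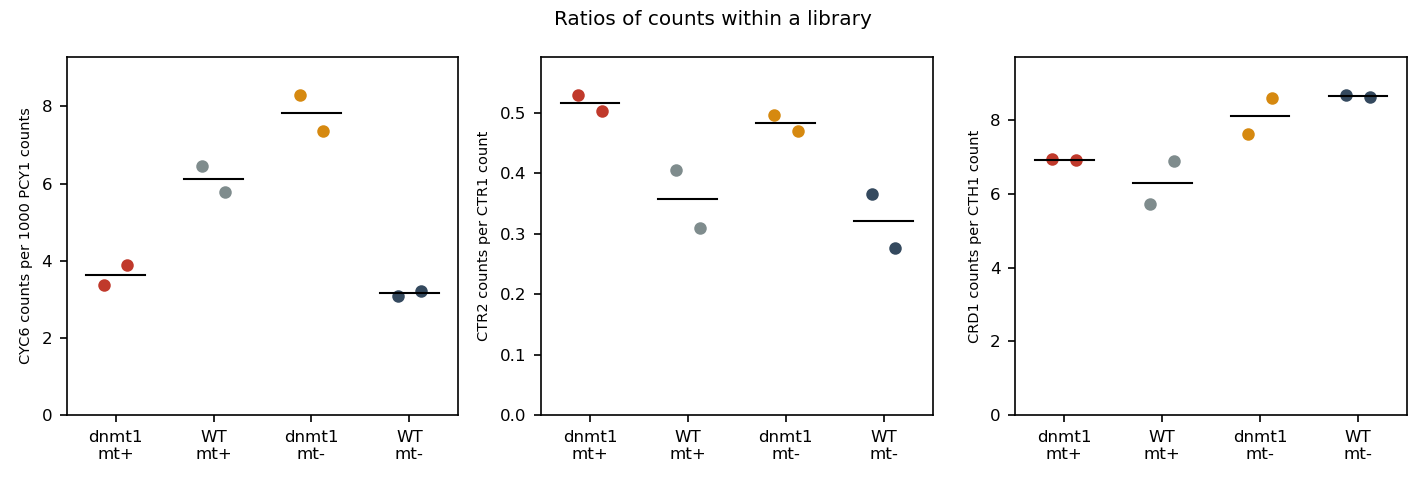
Ratios of counts within each library, for CYC6 to PCY1, CTR2 to CTR1 and CRD1 to CTH1 (points, libraries; lines, means of 2; axes from 0). The CYC6 to PCY1 ratio is low in dnmt1 mt+ and WT mt- and high in the other 2 groups, and the CTR2 to CTR1 ratio is higher in all 4 dnmt1 libraries.

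CRR1 itself was not called in any comparison when all 8 libraries were fitted. It had 572 and 549 CPM in dnmt1 mt+ against 642 and 588 CPM in WT mt+, and 583 and 587 CPM in dnmt1 mt- against 605 and 607 CPM in WT mt-. Every dnmt1 library lay below every WT library, by little, the nearest at 587 and 588 CPM. The log2 fold changes were -0.13 in mt+ (95% interval -0.30 to 0.03, edgeR adjusted p = 0.271) and -0.05 in mt- (-0.22 to 0.12, edgeR adjusted p = 0.677). Without WT mt+ replicate 2 the fall in mt+ was called, at -0.20 (edgeR adjusted p = 0.0224). Transcript level says nothing here of the activity of the protein, which is known to be set by copper.

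In mt+, 3 of the 7 genes were called higher in dnmt1 and 1 lower, where 18.1% of all tested genes were called (9.27% higher and 8.83% lower). In mt-, 4 of 7 were called higher and 0 lower, where 23.5% were called (11.9% higher and 11.6% lower). The median log2 fold change of the 7 was 0.12 in mt+ and 0.34 in mt-, and that of all tested genes -0.00169 and 0.00746. DESeq2 also called 3 higher and 1 lower in mt+, and 4 higher and 0 lower in mt-. With library size alone as the scaling, the calls over all genes in mt- split into 1209 higher and 2442 lower, against 1820 and 1774 with TMM. The fit without WT mt+ replicate 2 called 6 of the 7 in mt+, the count of lower ones being 3.

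**Figure D4:**
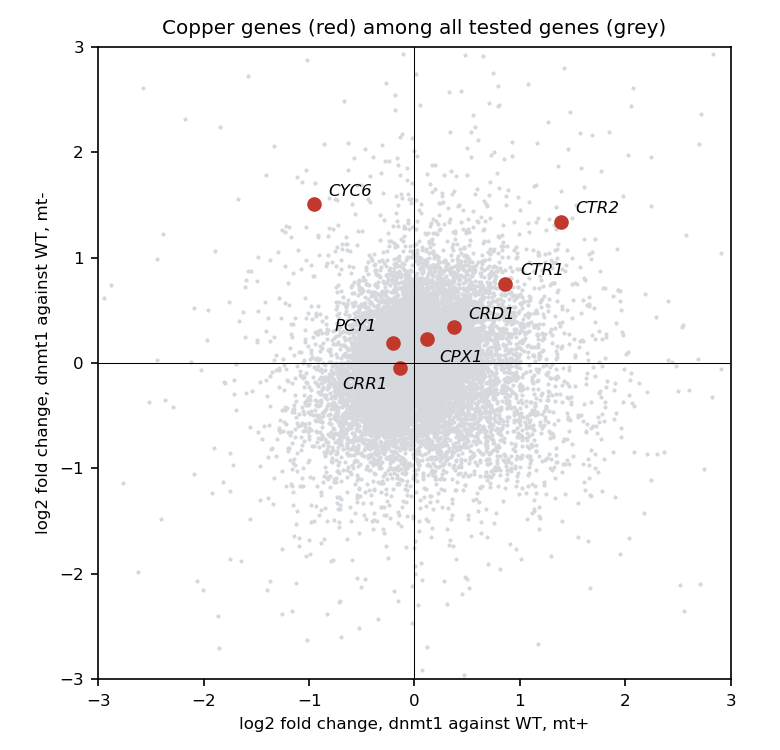
Log2 fold change between dnmt1 and WT in mt- (vertical) against mt+ (horizontal) for all tested genes (grey, 15180 drawn and 83 beyond the axes, which end at 3 on either side) and the 7 copper genes (red, named). CTR1, CTR2, CRD1 and CPX1 lie in the upper right part, CYC6 and PCY1 in the upper left, and CRR1 near the centre.

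The mating types, and with them the strains, were also compared within each genotype. In dnmt1, CYC6 was the single gene called, where 22% of tested genes were called (10.7% higher and 11.4% lower in mt+). CTR1 had 96.5 ± 3.52 CPM in dnmt1 mt+ and 115 ± 1.74 CPM in dnmt1 mt- (SD, n = 2 each; -0.26 ± 0.10, edgeR adjusted p = 0.0741), and was called without either library of WT mt+ (0.00175 and 8.76e-04). In WT, 3 of 7 were called, where 21.5% of tested genes were called (10.6% higher, 10.9% lower): CYC6 and PCY1 were higher and CTR1 lower in mt+. CTR1 had 53.3 ± 7.93 CPM in WT mt+ and 68.7 ± 5.36 CPM in WT mt- (SD, n = 2 each; log2 fold change -0.37 ± 0.10, edgeR adjusted p = 0.0190), a call lost without either WT mt- library (0.0525 and 0.187), without WT mt+ replicate 2 (0.0571) and in a fit to the WT groups alone (0.0913). In a fit to the 2 WT groups alone only CYC6 was called, and without WT mt+ replicate 1 the count was 6. Without WT mt- replicate 1 it was again 1. Scaling by library size alone split the calls over all genes into 1203 higher and 1970 lower, against 1615 and 1665 with TMM.

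The order of the group means showed which genes shared a pattern. For both CTR1 and CTR2 it ran, from low to high, WT mt+, WT mt-, dnmt1 mt+ and dnmt1 mt-. Neighbouring groups did not overlap for CTR1, while for CTR2 the 2 WT groups did. CRD1 had the same order, with overlap between the 2 WT groups and between the 2 dnmt1 groups. CPX1 overlapped between all neighbours in its order. As a measure of likeness, the root mean square difference of centred log2 CPM over the 8 libraries was 0.262 between CTR1 and CRD1 and 0.323 between CTR1 and CTR2, and it was 0.718 and 0.862 between CYC6 and CTR1 or CTR2. The measure is also small between genes that vary little. It was 0.232 between CRD1 and CRR1, whose dnmt1 libraries lay on opposite sides of WT. Between CTR2 and CRD1, which had the same order of groups, it was 0.528.

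Likeness was measured over 11356 genes that averaged 5 CPM or more. Those most like CTR1 over the 8 libraries were Cre03.g185250, Cre03.g155250 and Cre10.g466050, at root mean square differences of 0.0928, 0.102 and 0.105 on the log2 scale. Those most like CTR2 were Cre15.g801800 (0.136), Cre06.g800687 (0.138) and Cre01.g034850 (0.188). Those most like CYC6 were Cre12.g488450 (0.216), Cre09.g388355 (0.241) and Cre14.g616650 (0.243). The tables used here give these genes no symbol. None of the 9 was on a list of copper-related or tetrapyrrole genes used here, and likeness over 8 libraries says nothing of shared function.

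Among genes known to depend on CRR1 or to respond to low oxygen, 2 of 6 were higher in dnmt1 mt+ and 5 of 6 in dnmt1 mt-, with none lower. The 5 included CTH1, whose product, unlike that of CRD1, is known to accumulate in copper-replete cells. Over all tested genes, 9.27% and 11.9% were called higher. This list and those below were drawn up with earlier results of these data known. Their counts therefore cannot be weighed against such shares. The median log2 fold changes of the 6 were 0.20 and 0.46. HYDEF (Cre06.g296750), which helps to assemble the active site of the hydrogenases, rose in both (0.62 ± 0.10 in mt+, edgeR adjusted p = 3.73e-04, and 0.71 ± 0.10 in mt-, edgeR adjusted p = 1.29e-04). HYDA2 (Cre09.g396600), for a hydrogenase, rose in mt- (0.75 ± 0.08, edgeR adjusted p = 2.29e-05) and had 0.11 ± 0.08 in mt+, and this difference between mating types was called (-0.64 ± 0.12, edgeR adjusted p = 0.00190). The group that stood apart for HYDA2 was WT mt-, with a mean of 243 CPM. The means were 401 CPM in dnmt1 mt+, 373 in WT mt+ and 409 in dnmt1 mt-. In mt-, HYDG (Cre06.g296700), another assembly factor, had 0.47 ± 0.11 (edgeR adjusted p = 0.00619), a call lost without dnmt1 mt- replicate 1 (0.0673) or WT mt- replicate 1 (0.0664). HYDA1 (Cre03.g199800) had 0.27 ± 0.08 (edgeR adjusted p = 0.0165), a call lost without any 1 of the 4 mt- libraries. HYDA1 and HYDA2 are similar in sequence, so reads may be shared.

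FDX5 (Cre17.g700950), a ferredoxin known as a CRR1 target, ran opposite to CYC6. It had 127 and 122 CPM in dnmt1 mt+ against 96.9 and 57.7 CPM in WT mt+, and 155 and 156 CPM in dnmt1 mt- against 177 and 203 CPM in WT mt-. Its log2 fold changes were 0.70 ± 0.16 in mt+ (edgeR adjusted p = 0.00575) and -0.29 ± 0.15 in mt- (edgeR adjusted p = 0.187), and their difference was 0.99 ± 0.22 (edgeR adjusted p = 0.00692). DESeq2 did not call FDX5 in mt+ or for the difference (adjusted p = 0.0724 and 0.0736), nor did edgeR in mt+ without dnmt1 mt+ replicate 1 (0.0518) or for the difference without WT mt- replicate 2 (0.0517). The count of called genes of this list in mt+ was 1 without dnmt1 mt+ replicate 1 and 5 without WT mt+ replicate 1. In mt- it was 2 without dnmt1 mt- replicate 1 or WT mt- replicate 1, and 3 without WT mt- replicate 2.

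Of the other copper proteins listed, FOX1 (Cre09.g393150), a multicopper ferroxidase of iron uptake, was higher in dnmt1 in mt+ (0.64 ± 0.09, edgeR adjusted p = 1.55e-04) and in mt- (0.37 ± 0.09, edgeR adjusted p = 0.00826). Its call in mt- was lost without any 1 of the 4 mt- libraries (0.0657 to 0.0952). ATX1 (Cre09.g392467), a copper chaperone, had log2 fold changes of 0.22 ± 0.12 and 0.24 ± 0.11 and was not called in either.

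Among 7 electron transfer partners of plastocyanin and cytochrome c6, 1 fell in dnmt1 mt+, where 8.83% of all tested genes were called lower, and 3 rose in dnmt1 mt-, where 11.9% were called higher. The count in mt+ is near its background. FNR1 (Cre11.g476750), for ferredoxin-NADP reductase, fell in mt+ (-0.48 ± 0.10, edgeR adjusted p = 0.00285), a call lost without dnmt1 mt+ replicate 1 (0.0547). In mt-, the genes called higher were PETC (Cre11.g467689), for the Rieske iron-sulfur protein of the cytochrome b6f complex (0.46 ± 0.09, edgeR adjusted p = 0.00165), PSAN (Cre02.g082500), a photosystem I subunit on the plastocyanin side (0.36 ± 0.08), and PETF (Cre14.g626700), for the main ferredoxin (0.32 ± 0.09). The calls of PSAN and PETF were lost without any 1 of 3 mt- libraries, both dnmt1 ones and WT mt- replicate 1, and that of PETF also without either dnmt1 mt+ library (0.0505 and 0.0502). PSAF (Cre09.g412100), the docking subunit for both electron carriers, had 0.02 ± 0.08 in mt+ and 0.21 ± 0.08 in mt- and was not called. The count in mt- was 7 without either WT mt+ library, 5 without WT mt- replicate 2, and 1 without any other single mt- library.

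CPX1 and CRD1 are steps of tetrapyrrole synthesis, and 11 other genes of that route were listed. In dnmt1 mt+, 4 rose and 2 fell, and in dnmt1 mt- 7 rose and 2 fell, with medians of 0.26 and 0.65. Over all tested genes, 18.1% and 23.5% were called in either direction. In a fit to the mt+ groups alone the counts in mt+ were 2 higher and 1 lower. Of the rises in mt-, that of CHLM1 (Cre12.g498550; 0.65 ± 0.19) was not called without either dnmt1 mt- library or either WT mt- library. Its log2 fold change was then 0.55 to 0.73. That of PBGD1 (Cre16.g663900; 0.68 ± 0.18) was not called without either dnmt1 mt- library or WT mt- replicate 1. It was then 0.48 to 0.69. The 2 that fell were the same in both: GSA1 (Cre03.g210513; -0.98 ± 0.20 in mt+ and -1.35 ± 0.19 in mt-) and HEMA1 (Cre07.g342150; -0.38 ± 0.10 and -0.73 ± 0.10), which make the first committed precursor. POR1 (Cre01.g015350), for light-dependent protochlorophyllide reductase, and CHLI1 (Cre06.g306300), a magnesium chelatase subunit, rose in both (0.57 ± 0.10 and 0.41 ± 0.09 in mt+, and 0.47 ± 0.10 and 0.75 ± 0.09 in mt-). Other steps near CPX1 differed by mating type in some cases: ALAD1 (Cre02.g091050), an earlier step, had 0.000538 ± 0.09 in mt+ and 0.77 ± 0.09 in mt-, UROD1 (Cre11.g467700), the step before CPX1, had 0.02 ± 0.11 in mt+ and 1.02 ± 0.11 in mt- (difference -0.998 ± 0.15, edgeR adjusted p = 3.65e-04), while PPX1 (Cre09.g396300), the step after, had 0.70 ± 0.17 in mt+ and 0.15 ± 0.18 in mt- (difference 0.55 ± 0.25, edgeR adjusted p = 0.161). For UROD1 and ALAD1 the group that stood apart was WT mt-, which was low. Mean UROD1 was 43.5 CPM there, against 94.6 in dnmt1 mt+, 93.7 in WT mt+ and 87.8 in dnmt1 mt-. Mean ALAD1 was 87.4 CPM there, against 139, 139 and 149 in the same order. For PPX1 it was dnmt1 mt+, at 23.2 CPM, against 14.1 in WT mt+, 15.7 in dnmt1 mt- and 14.3 in WT mt-. HEMA1 was not called in mt+ without dnmt1 mt+ replicate 1 (0.238), nor PPX1 without replicate 2 (0.164), and POR1 was not called in mt- without dnmt1 mt- replicate 1 (0.0554) or WT mt- replicate 2 (0.0773).

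**Figure D5:**
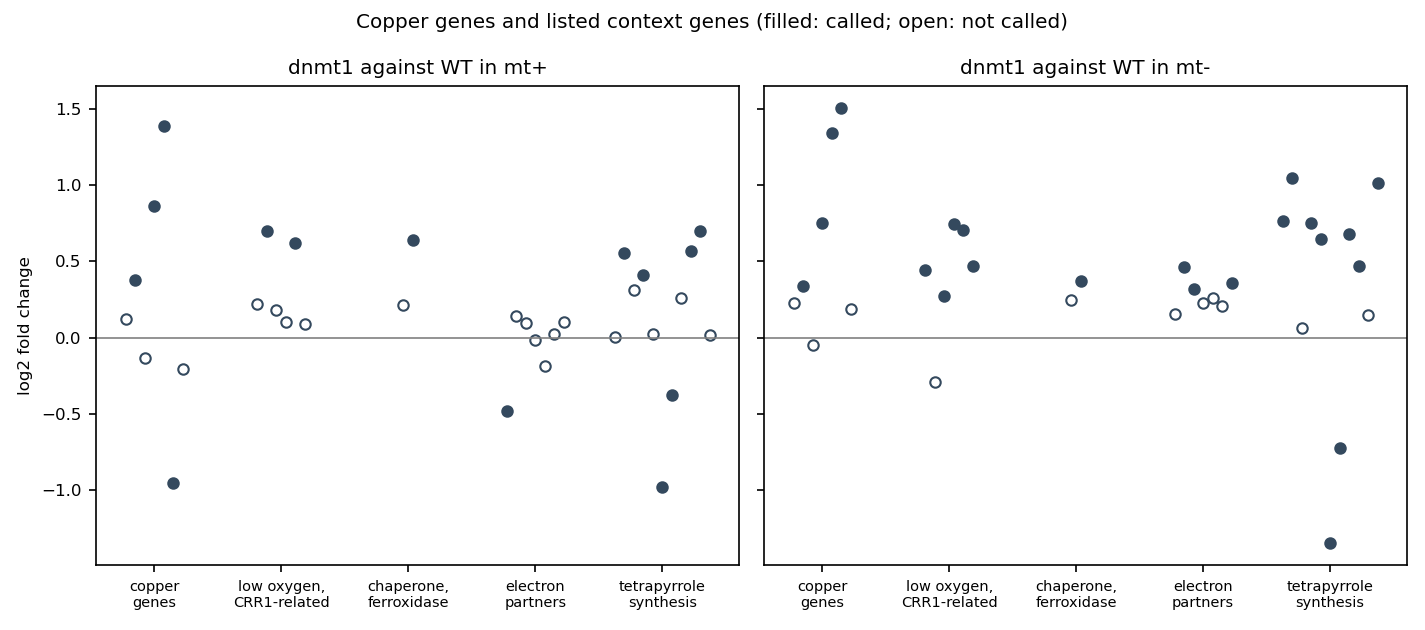
Log2 fold change between dnmt1 and WT in mt+ (left) and mt- (right) of the 7 copper genes and of the 4 lists of related genes (points, genes in alphabetical order within a list; filled, called; open, not called). In mt- the called genes of the low-oxygen and electron transfer lists lie above 0, and 2 tetrapyrrole genes lie below 0 in both panels.

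The genes next to the copper genes on the chromosome, taken by order in the v5.5 assembly, were called about as often as all tested genes. Of the 14 nearest tested neighbours, 1 was higher and 2 were lower in dnmt1 mt+, and 1 was higher and 3 were lower in dnmt1 mt-, where 18.1% and 23.5% of all tested genes were called. None of the 7 genes overlapped another annotated locus there. The labels do not state that counting used strand, so antisense RNA could not be told apart. On the other side of CYC6, Cre16.g651100 was higher in dnmt1 mt- (0.64 ± 0.21, edgeR adjusted p = 0.0379) and had 0.01 ± 0.21 in mt+. The neighbour before CYC6, Cre16.g651000, singled out after its values were seen, was a mirror of CYC6: 46.5 and 52.2 CPM in dnmt1 mt+ against 33.4 and 32.1 CPM in WT mt+, and 23.2 and 27.3 CPM in dnmt1 mt- against 41.1 and 40.0 CPM in WT mt-. Its log2 fold changes were 0.59 ± 0.11 (edgeR adjusted p = 0.00127) and -0.68 ± 0.11 (edgeR adjusted p = 4.34e-04), with a difference of 1.28 ± 0.15 (edgeR adjusted p = 5.11e-05). These 3 calls held in every alternative fit run. The neighbour before CTR1, Cre13.g570550, was lower in dnmt1 where CTR1 was higher, with -0.61 ± 0.15 in mt+ and -0.59 ± 0.15 in mt-. Those calls were lost in mt+ without any of 3 single mt+ libraries (edgeR adjusted p 0.0802 to 0.126) and in mt- without any of 3 single mt- libraries (0.0593 to 0.113).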

How the data were processed

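Tools named in the submitters' processing notes, without roles, were DESeq2, featureCounts, Picard, STAR 2.7.6 and Trim Galore 2.6. The authors deposited raw counts per gene, whose IDs carry a CC-4532 v6.1 suffix; the deposited normalized table was not used. Of 17693 IDs, 15386 matched the RefSeq v5.5 table, all 7 copper genes included, and no coordinates of that build are printed.

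filterByExpr kept 15263 genes. TMM scaling and glmQLFit (4 group means, 4 residual degrees of freedom) were run in edgeR 4.0.16 under R 4.3.3. Contrasts were tested with glmQLFTest, 2-sided. The standard error is the log2 fold change divided by the square root of F. The code was run on counts simulated from the fit's own means and dispersions, which checks the code and not how well the model suits these data. Likeness used log2 CPM with a prior count of 2. Every copper gene is named; context genes were named if called, by smallest p, up to 4 a comparison, and others after their values were seen. The genes and lists were chosen with earlier results of these data known. Alternatives were DESeq2 1.42.0, RLE, library size, no filter, 2 groups alone, replicate block, halved counts and each library left out. With counts read without molecular identifiers, errors cover counting and replicate spread; p-values rest on 2 libraries a group.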

Additional observations from a re-analysis of the deposited data

Results flagged for a closer look

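The dnmt1 effect on CYC6 differed between the mating types by the test of the difference itself. Its log2 fold change in mt+ minus that in mt- was -2.46 ± 0.25 (edgeR adjusted p = 8.31e-06), with CYC6 lower than WT in both dnmt1 mt+ libraries and higher than WT in both dnmt1 mt- libraries. DMT1, the gene taken as the knockout target, had a difference of -2.66 ± 0.17 of the same sign, and its part in the result was not tested. Over all tested genes, 7% were called lower for this difference. PCY1, at -0.39 ± 0.13, passed the threshold for this difference only in 7 of 14 alternative fits.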

How the results depend on the processing

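CTR1, CTR2 and CYC6 were called in both comparisons of dnmt1 with WT, and CYC6 also for the difference and between mating types, in all alternative fits run. For the difference, the count of copper genes was 2 with DESeq2, library size alone, no low-count filter and the replicate block, the second being PCY1 each time, and 1 to 3 over fits that left out 1 library. Between mating types it was 2 in dnmt1 and 1 in WT in fits to those 2 groups alone, and 1 to 2 in dnmt1 and 1 to 6 in WT with 1 library left out. Over all genes, fits to 2 groups alone called 1519 in mt+, 5659 in mt-, 5221 between mating types in dnmt1 and 1771 in WT. With 1 library left out the calls ran from 1305 to 4181 in mt+, 1593 to 5682 in mt-, 1088 to 4341 for the difference, 1452 to 5320 in dnmt1 and 1306 to 4869 in WT.

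Signs turned in 21 values, none of genes called in that comparison. Library size alone gave CRR1 0.0092 for the difference and -0.037 in WT, and CRD1 0.0063 in dnmt1, and DESeq2 gave CPX1 -0.0019 in dnmt1. With 1 library left out, CPX1 ran from -0.35 to 0.73 in mt+, and the difference ran from -0.044 to 0.27 for CTR1, -0.27 to 0.43 for CTR2, -0.58 to 0.51 for CPX1 and -0.10 to 0.19 for CRD1. Between mating types, CTR2 ran from -0.58 to 0.11, CPX1 from -0.47 to 0.60, CRD1 from -0.20 to 0.068 and CRR1 from -0.046 to 0.084 in WT, and in dnmt1 CPX1 ran from -0.13 to 0.20 and CRD1 from -0.041 to 0.0043. The cause was not tested. The labels do not state whether replicate numbers pair the samples, and deviations of replicates correlated weakly between groups (-0.0482 to 0.149). The replicate block gave 4, 4, 2, 3 and 1 copper genes over the 5 comparisons. Over all genes it called 3025 in mt+ against 2763 without it, and 3895 in mt- against 3594. Where a group kept 1 library, it was assumed to vary like the others. Depth limits CYC6 and CPX1 most, at 108 to 304 counts per library.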
